A study of Mus musculus with 14 samples.

Results

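The cytochrome P450 genes of families 1 to 4 were followed in the liver RNA of 14 mice. A gene counted as a member when its symbol had the form Cyp, a family number from 1 to 4, a subfamily letter and a gene number, pseudogenes left out, and when it reached 1 TPM in at least 3 libraries. TPM is the scaled share of a gene among all transcripts after division by transcript length, so levels can be set side by side between genes. Of the 17656 genes in each table, 79 had such a symbol, 57 of them were members and 22 stayed below the minimum. The members were 2 of family 1 (Cyp1a), 35 of family 2, 8 of family 3 (Cyp3a) and 12 of family 4, and the largest subfamilies were Cyp2c with 13, Cyp3a with 8 and Cyp2d with 7 members. On GRCm38, with GENCODE vM21, the Cyp2c genes lie on chromosome 19, Cyp3a on 5, Cyp2d on 15, Cyp4f on 17, Cyp4a, Cyp4b and Cyp2j on 4, Cyp1a on 9, and Cyp2a, Cyp2b, Cyp2e, Cyp2f, Cyp2g, Cyp2r and Cyp2s on 7. No gene of the subfamilies Cyp1b, Cyp2t, Cyp2u, Cyp2w or Cyp4x reached the minimum.

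The study asked how loss of Ythdf1, a reader of m6A-marked RNA, alters hepatitis caused by concanavalin A (ConA), a plant lectin that activates T cells in the liver. Of the C57BL/6 mice aged 8 weeks, 3 wild-type (WT saline) and 3 Ythdf1-/- animals (KO saline) received saline, and 4 wild-type (WT ConA) and 4 Ythdf1-/- animals (KO ConA) received 8 mg/kg ConA by the tail vein. Livers were taken at 8 h, and the labels give each library as a biological replicate. The Ythdf1-/- allele was made with CRISPR/Cas9 and is carried by every cell, so a change in hepatocytes cannot be told apart from one that starts in immune cells. KO below stands for a mouse labelled Ythdf1-/-.

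P450 enzymes are heme proteins of the endoplasmic reticulum that insert an oxygen atom into their substrates with electrons from NADPH, passed on by P450 oxidoreductase. In mouse liver, families 1 to 3 oxidize drugs, carcinogens, steroids and fatty acids, and family 4 mainly hydroxylates the end of fatty acid chains. Many members are switched on by receptors: AhR acts on Cyp1 genes, CAR and PXR on Cyp2b, Cyp2c and Cyp3a genes, and PPARalpha on Cyp4a genes. The genes lie in clusters of close copies, and several are far more abundant in 1 sex, or around the central vein. Loss of P450 expression in inflamed liver is long known.

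Some libraries stood apart. WT saline replicates 2 and 3 were nearly the same (median size of their log2 ratio 0.0515 over the members; any other 2 mice of 1 group gave between 0.145 and 0.492), so results against WT saline are also given with their average as 1 sample. Whether the pair is 1 library, 1 mouse or 2 like mice cannot be told from TPM. WT ConA replicate 3 and KO ConA replicate 3 had rescaling factors of 0.784 and 0.839, against 0.958 to 1.18 in the other 12 libraries. The Ythdf1 transcript lay between 12.0 and 13.9 TPM in WT saline and between 18.4 and 20.8 in KO saline, and the value of a whole gene does not check a deletion within it. The study's methods describe male mice, yet the Y-linked genes Ddx3y and Eif2s3y were at 0 to 0.02 and 0 to 0.07 TPM in the 14 libraries while Uty had 0.87 to 2.12, and P450 genes typical of female liver were abundant in most libraries. The acute-phase genes Saa1 and Saa2 rose from at most 0.0523% of all TPM after saline to 7.18 to 8.73% after ConA, which lowers every other share.

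Among saline-treated WT mice the 57 members together held 29880 to 34930 TPM. Cyp2e1, which oxidizes ethanol, acetone and paracetamol, was the most abundant and made up 25.3 to 27.9% of that sum. Cyp3a11, the main drug-oxidizing Cyp3a enzyme, followed with 14.1 to 18.2%. By subfamily, Cyp2e held a mean of 8913 ± 1181 TPM (SD, n = 3), Cyp2c 7207 ± 472, Cyp3a 6397 ± 247, Cyp2a 3233 ± 525, Cyp2d 2498 ± 80.4, Cyp4a 1498 ± 335 and Cyp1a 986 ± 111. Cyp2e, at 7564 to 9759, lay just above Cyp2c, at 6668 to 7544, and the ranges of Cyp2c and Cyp3a met at 6668. Within each WT saline mouse the order was Cyp2e, then Cyp2c, then Cyp3a.

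After ConA the summed TPM of the members was 8766 to 12280 in WT and 10830 to 12560 in KO mice, below every saline value of its genotype, and KO saline held 22990 to 27110, below every WT saline value. The ratio of the group means was 2.96 between WT saline and WT ConA and 2.10 between KO saline and KO ConA. Among the subfamilies with more than 1 member, the ratio in WT mice ran from 2.28 for Cyp2c to 4.67 for Cyp2a, and in KO mice from 1.24 for Cyp4a to 4.27 for Cyp1a. Among the same subfamilies, Cyp4a had the largest ratio of KO ConA to WT ConA, 203%, with sums between 649 and 1361 TPM in KO ConA against 333 and 539.9 in WT ConA. In bulk liver RNA, fewer hepatocytes and less P450 RNA per hepatocyte cannot be told apart.

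**Figure D1:**
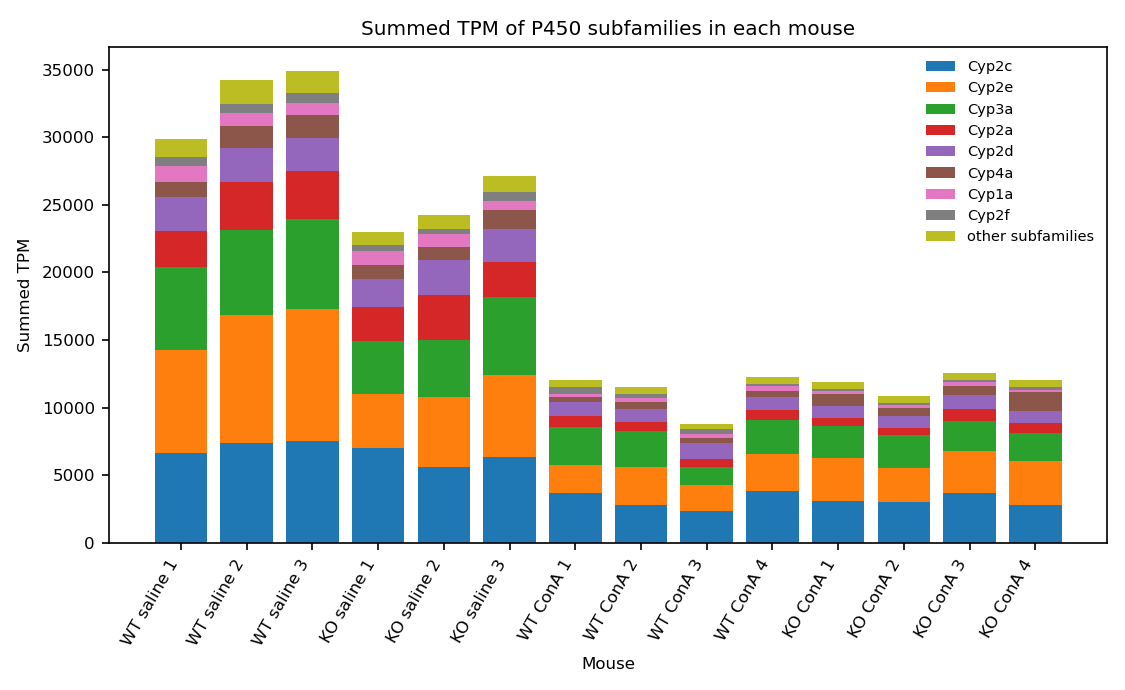
Summed TPM of the P450 subfamilies (vertical axis, starting at 0) in each of the 14 mice (horizontal axis), stacked by subfamily. The 3 WT saline mice reach 29880 to 34930, the 3 KO saline mice 22990 to 27110, and the 8 ConA mice stay at 12560 or below.

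Each gene was compared between groups with limma on log2(TPM + 1), and a member was called when its p, adjusted by Benjamini-Hochberg over all genes tested, was under 0.05. In WT mice ConA lowered most of the families: of 56 members tested, 43 fell, 2 rose and 11 did not pass the test. Over all 10768 genes tested, 31.0% were called lower and 22.0% higher. The median log2 fold change was -1.27 over the members and -0.07 over all genes. Ranges of WT ConA and WT saline did not overlap, with ConA lower, for 42 members and for 34.7% of all genes tested. Cyp2d12 and Cyp2g1 were under 1 TPM in every WT ConA library and Cyp2s1 in every WT saline library, so these 3 were tested through 1 group alone.

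In KO mice 42 of 56 members fell, 3 rose and 11 did not pass, while 30.7% of the 10988 genes tested were called lower and 33.9% higher. Here the median log2 fold change was -1.21 over the members and 0.07 over all genes, and 39 members lay lower without overlap, as did 31.5% of all genes. Cyp1a1, Cyp2d34 and Cyp2g1 were under 1 TPM in every KO ConA library, so they were tested through KO saline alone. Of the 55 members tested in both genotypes, 40 fell in both and 1, Cyp2b10, rose in both. Cyp2c29, Cyp3a13 and Cyp4a14 fell in WT and did not pass in KO, Cyp2a4 did the reverse, Cyp2s1 rose in WT, Cyp3a16 and Cyp4f17 rose in KO, and 7 passed in neither. Across these 55 members the log2 fold changes of both genotypes had a Pearson r of 0.74, given as a description, since members of a cluster share sequence and reads.

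**Figure D2:**
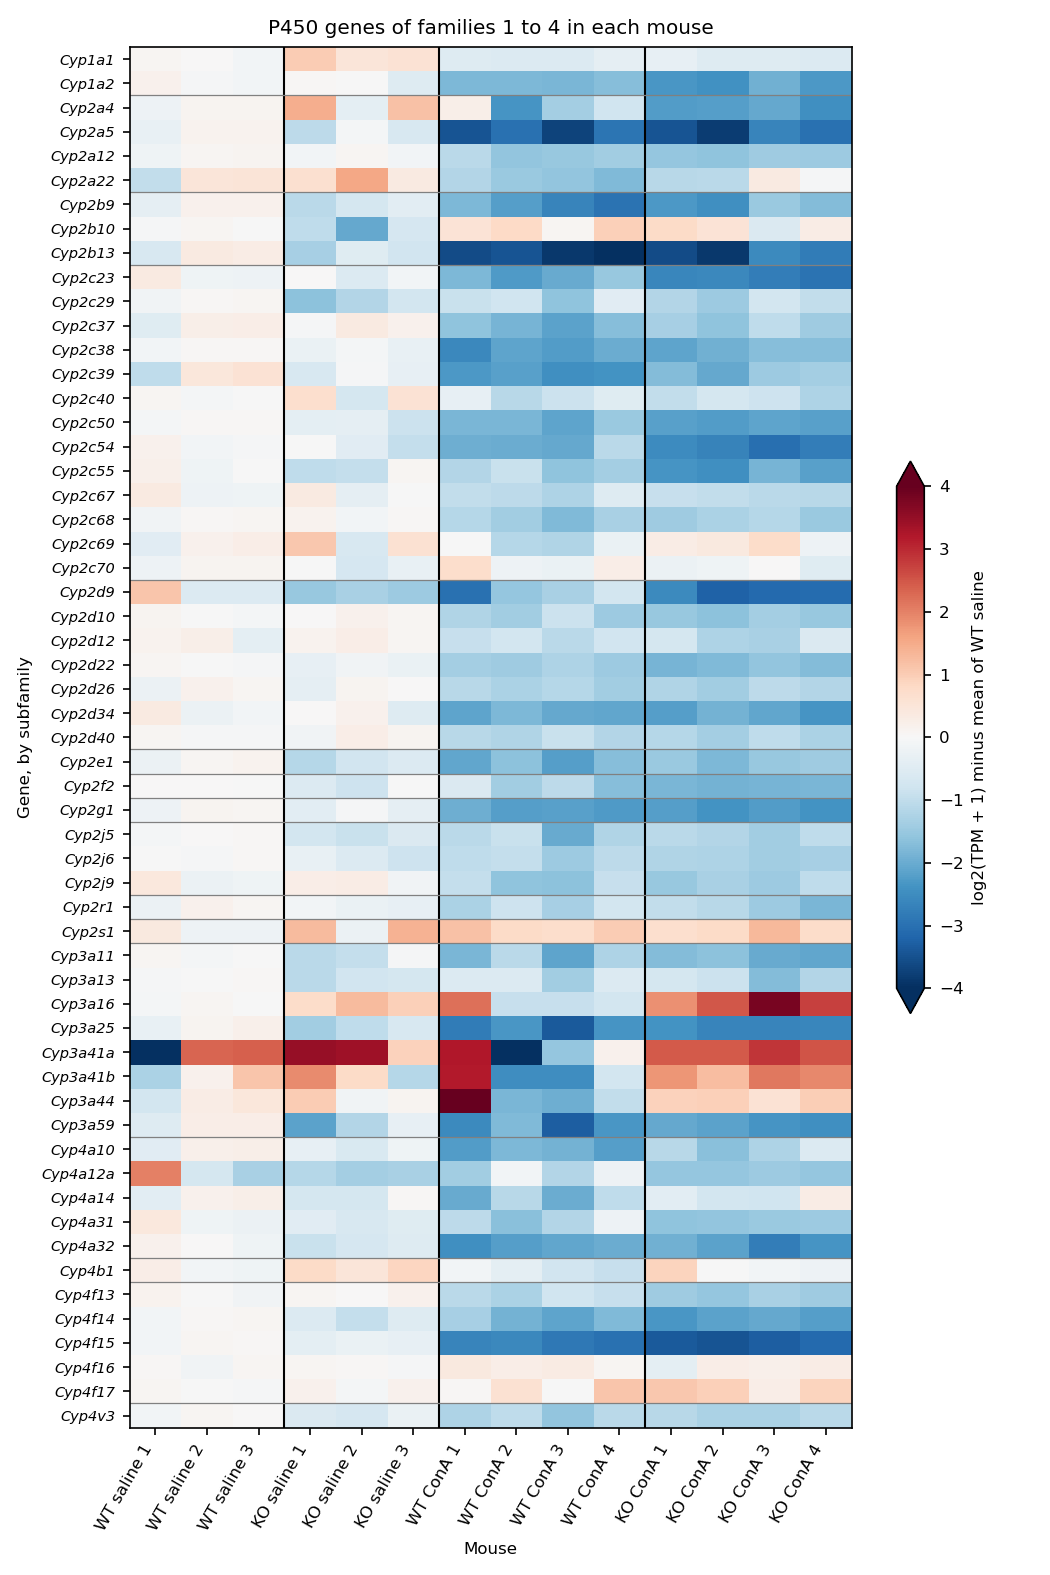
Difference of log2(TPM + 1) from the mean of WT saline (colour, blue lower, red higher, saturated beyond 4) for the 57 members (rows, grouped by subfamily) in the 14 mice (columns, grouped by condition). Most rows turn blue in both ConA groups, Cyp2b10 turns red in 7 of the 8 ConA mice, and the Cyp3a16, Cyp3a41a, Cyp3a41b and Cyp3a44 rows differ from mouse to mouse.

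Cyp1a2, which oxidizes caffeine and aromatic amines, had 1112, 943 and 903 TPM in the 3 WT saline mice and 283, 280, 275 and 299 in the 4 WT ConA mice. The KO mice gave 1021, 973 and 685 TPM after saline and 197, 184, 257 and 199.7 after ConA. All ConA values were below all saline values, and in each ConA group the mice lay close together. The log2 fold change was -1.79 (SE 0.12, adjusted p = 3.79e-06) in WT and -2.08 (SE 0.17, adjusted p = 1.53e-06) in KO. Its neighbour Cyp1a1, the inducible member that oxidizes polycyclic hydrocarbons, was at 0.37 to 0.55 TPM in WT saline, 1.06 to 1.93 in KO saline and 0.16 or less in every ConA library. Cyp1b1, another AhR target, did not reach the minimum.

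Cyp2e1 read 7564, 9416 and 9759 TPM in WT saline, 4005, 5198 and 6115 in KO saline, 2099, 2817, 1916 and 2694 in WT ConA and 3194, 2537, 3074 and 3293 in KO ConA. Both ConA groups were thus below both saline groups, but the KO mice started lower and ended, apart from 1 mouse, higher than the WT mice. The log2 fold change was -1.91 (SE 0.17, adjusted p = 2.20e-05) in WT and -0.74 (SE 0.17, adjusted p = 0.00257) in KO. Cyp2a5, the coumarin hydroxylase, was among the deepest falls in both genotypes: from 1649, 2237 and 2257 TPM to 185, 256, 155 and 267 in WT, and from 978, 1915 and 1297 to 184, 144, 323 and 255 in KO. Its log2 fold change was -3.26 (adjusted p = 3.79e-06) in WT and -2.63 (adjusted p = 1.32e-05) in KO. Cyp2a4, a steroid hydroxylase and close copy of Cyp2a5, shares 36.1% of its 50-base stretches with it, so reads of these 2 genes may have been split between them.

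**Figure D3:**
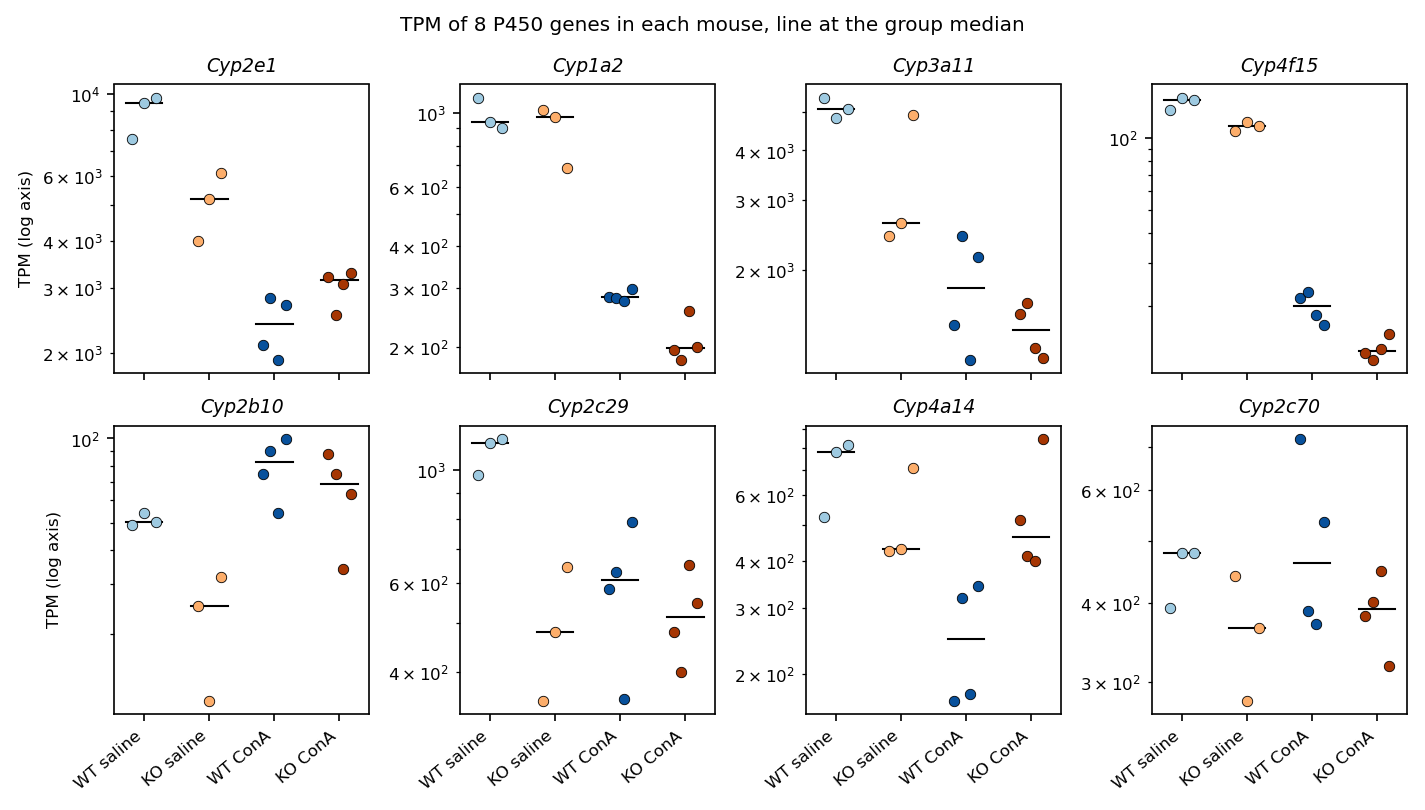
TPM (log axes, which differ between panels) of 8 members in each mouse, with 1 point for each mouse and a line at the group median. Cyp2e1, Cyp1a2 and Cyp4f15 show ConA points below all saline points, Cyp3a11 nearly so, Cyp2b10 shows ConA points above the saline points of its genotype, and Cyp2c70 shows overlapping groups.

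Cyp2b genes, of which Cyp2b10 is the textbook target of CAR, moved in opposite directions side by side on chromosome 7. Cyp2b10 was at 49.2, 53.9 and 50.3 TPM in WT saline and at 74.5, 90.5, 54.2 and 99.8 in WT ConA. Among KO mice the values were 25.04, 11.5 and 31.9 after saline and 88.3, 74.4, 34.2 and 63.1 after ConA. Every ConA value lay above the saline values of its genotype, though WT ConA replicate 3 and KO ConA replicate 3 came close to them. The rise had a log2 fold change of 0.60 (SE 0.20, adjusted p = 0.0304) in WT and 1.50 (SE 0.35, adjusted p = 0.00331) in KO, and the WT call was lost when any library other than WT ConA replicate 3 was left out. Cyp2b13, a female-predominant member, fell from 191, 381 and 367 TPM to 24.0, 26.7, 19.6 and 12.9 in WT, and from 119, 212 and 175 to 24.2, 19.7, 50.2 and 42.5 in KO. Its log2 fold changes were -3.83 (SE 0.30, adjusted p = 9.59e-06) and -2.33 (SE 0.31, adjusted p = 6.06e-05), and Cyp2b9, also female-predominant, gave -2.40 and -1.26. In the RefSeq table (GRCm38.p6), the 250 bases before the start were identical at 248 positions between Cyp2b9 and Cyp2b13, and at 65 between Cyp2b10 and Cyp2b13 without allowing for gaps. The upstream sequences of the member that rose and of 1 that fell are shown, 5′ to 3′ on the plus strand, at chr7:25897408-25897619 for Cyp2b10 and chr7:26061245-26061494 for Cyp2b13, without bases that GENCODE vM21 places in a transcript. Capitals mark matches to TTGCNNAA, a C/EBP motif, and, in Cyp2b10, to the AhR core GCGTG on the other strand.
Cyp2b10: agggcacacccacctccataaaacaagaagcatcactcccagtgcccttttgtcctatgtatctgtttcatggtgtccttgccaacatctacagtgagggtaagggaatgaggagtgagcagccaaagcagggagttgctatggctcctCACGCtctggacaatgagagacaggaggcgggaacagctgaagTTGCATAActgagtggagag
Cyp2b13: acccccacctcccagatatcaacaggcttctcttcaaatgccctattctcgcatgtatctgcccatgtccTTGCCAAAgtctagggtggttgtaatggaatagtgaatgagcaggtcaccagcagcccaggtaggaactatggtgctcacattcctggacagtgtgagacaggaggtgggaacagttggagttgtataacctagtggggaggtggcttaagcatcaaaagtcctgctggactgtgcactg

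Counted from the RefSeq start, the C/EBP motif began 58 bases upstream in Cyp2b10 and 180 bases upstream in Cyp2b13. For Cyp2b10, the last 38 of these bases lie in a GENCODE vM21 transcript and are not printed. The match thus lies nearer to the end of the sequence shown. All 3 Cyp2b members held it, and so did 23.9% of the 46 members found in the table and 10.8% of all 27025 gene symbols in it. The AhR core was found in 15.2% of the members and 30.9% of all symbols. A match is a description of the letters and says nothing about binding.

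Cyp2c genes make and break down signaling lipids and drugs, and 11 of 13 fell in WT and 10 of 13 in KO mice. Cyp2c23, an arachidonic acid epoxygenase, shares no 50-base stretch with another gene and fell to 93.6 to 158 TPM from 397 to 590 in WT, and to 57.8 to 76.4 from 310 to 458 in KO (log2 fold change -1.90 and -2.50). Cyp2c37, Cyp2c50 and Cyp2c54, which are abundant around the central vein, fell by 1.83, 1.81 and 1.77 on the log2 scale in WT and by 1.49, 1.63 and 2.26 in KO. Cyp2c55, a minor member that answers to CAR and PXR, fell by 1.27 and 1.58. The exception with fully separable reads was Cyp2c70, the enzyme that forms muricholic acids. It had 392, 478 and 478 TPM in WT saline and 722, 388, 371 and 536 in WT ConA. KO mice gave 440.4, 281 and 365 after saline and 380.4, 401, 448 and 318 after ConA. The groups overlapped, and the log2 fold change was 0.12 (SE 0.23, adjusted p = 0.693) in WT and 0.11 (SE 0.17, adjusted p = 0.584) in KO. Cyp2c69, with 45.2% of its 50-base stretches found in no other gene, did not pass in either genotype, but was called lower in WT without WT ConA replicate 1. Cyp2c40, at 27.9%, fell by 0.70 in WT and by 1.12 in KO.

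The Cyp2c cluster also held CAAAGTCCA, a binding sequence of HNF4, searched on both strands of the 250 bases before the start. It was in 9 of the 46 matched members (19.6%) and in 0.451% of all symbols, and the 9 were Cyp2c40, Cyp2c67, Cyp2c68, Cyp2c69, Cyp2c70, Cyp3a11, Cyp3a16, Cyp3a41a and Cyp3a41b, close copies of 2 clusters that are not independent. In WT mice 4 of these 9 fell with ConA, against 30 of the 36 tested members without the motif, and in KO mice 4 of 9 against 30 of 37. The WT contrast turned on 1 mouse: without WT ConA replicate 1, 7 of the 9 fell, against 32 of 36. The median log2 fold change of the 9 was -0.65 in WT and -0.03 in KO, against -1.29 and -1.32 for the others. In KO mice the median of the 9 was 0.26 without KO saline replicate 1 and -0.85 without KO saline replicate 3. Of the 9, Cyp2c40, Cyp2c69, Cyp3a16, Cyp3a41a and Cyp3a41b are also female-predominant members. With all libraries, only Cyp2c40 among these was called lower, in both genotypes. The motif and the sex bias can thus not be told apart here. These counts are a description without a test. The upstream sequences of a holder that fell, Cyp2c68 (chr19:39741102-39741351), and of Cyp2c70 (chr19:40187334-40187536), are shown 5′ to 3′ on the minus strand. Of the 250 bases searched for Cyp2c70, 47 that GENCODE vM21 places in a transcript are left out. Cyp2c70 is also counted below as a holder of TATAAA, which is not in the bases shown. Capitals mark CAAAGTCCA and, in Cyp2c68, also the HNF1 motif GTTAAT, the AhR core and CCAAT, all of them searched on both strands. In Cyp2c68, the HNF4 and CCAAT matches overlap, the sole pair of different motifs to do so in the members searched.
Cyp2c68: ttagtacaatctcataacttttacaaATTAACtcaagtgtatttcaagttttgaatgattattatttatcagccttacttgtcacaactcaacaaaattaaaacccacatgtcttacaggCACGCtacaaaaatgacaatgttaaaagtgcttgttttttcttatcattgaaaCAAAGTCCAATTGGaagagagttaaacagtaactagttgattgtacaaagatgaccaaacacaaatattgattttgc
Cyp2c70: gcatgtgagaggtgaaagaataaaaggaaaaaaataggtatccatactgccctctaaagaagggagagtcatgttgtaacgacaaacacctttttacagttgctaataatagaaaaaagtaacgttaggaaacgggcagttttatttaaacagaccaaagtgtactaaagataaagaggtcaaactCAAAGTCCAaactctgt

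TATAAA was in 23 of the 46 members and 14.3% of all symbols, GTTAAT in 17.4% and 7.49%, and CCAAT in 39.1% and 37.5%. The members with TATAAA and those without it had a median log2 fold change of -1.24 and -1.23 in WT mice. With CCAAT, 17 of 18 tested members fell in WT, against 17 of 27 without it. In KO mice, 16 of 18 fell against 18 of 28. The WT counts were 16 of 22 against 18 of 23 for TATAAA, and 8 of 11 against 26 of 34 for C/EBP. They were 6 of 8 against 28 of 37 for GTTAAT, and 4 of 6 against 30 of 39 for the AhR core. None of these splits was tested.

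All 7 Cyp2d members, which hydroxylate steroids and many drugs, were called lower in both genotypes, by 0.88 to 2.01 on the log2 scale in WT and by 1.10 to 2.03 in KO. Of these, Cyp2d12 was tested through WT saline alone in WT mice, and Cyp2d34 through KO saline alone in KO mice. The WT call of Cyp2d9 was lost without WT saline replicate 1 or WT ConA replicate 1 or 2. Cyp2d10 and Cyp2d26 were the most abundant, with means of 1033 and 1025 TPM in WT saline and overlapping ranges. Cyp2d10 went from 984 to 1101 TPM to 378 to 574 in WT and from 1051 to 1163 to 333 to 401 in KO. The 3 Cyp2j members, epoxygenases of arachidonic acid, fell as well. Cyp2j5 fell to 78.8 to 171 TPM from 301 to 331 in WT (log2 fold change -1.29), and to 122 to 157 from 171 to 215 in KO (-0.44, adjusted p = 0.0112, and 0.0694 with all 14 libraries in the fit). Cyp2f2, a lung and liver enzyme known for oxidizing naphthalene, is the periportal member. It fell by 1.18 in WT and by 1.39 in KO. Cyp2r1, a vitamin D hydroxylase, fell from 9.08 to 12.3 TPM to 3.74 to 6.16 in WT and from 8.55 to 9.94 to 2.33 to 4.99 in KO. Cyp2g1 was low throughout, with 3.75 to 4.83 TPM in WT saline, 3.04 to 4.23 in KO saline and 0.39 or less after ConA. Cyp2s1 was at 0.66, 0.09 and 0.09 TPM in WT saline and at 1.06 to 1.80 in WT ConA, and its rise (0.92, adjusted p = 0.00301) concerned a gene near 1 TPM. KO mice had 2.01, 0.06 and 2.31 TPM after saline and 0.99 to 2.09 after ConA.

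Among the Cyp3a genes, Cyp3a11, Cyp3a25 and Cyp3a59 fell in both genotypes, and the female-predominant Cyp3a16, Cyp3a41a, Cyp3a41b and Cyp3a44 were called lower in neither. For these 4 the outcome turned on single mice: without WT ConA replicate 1, Cyp3a16 (log2 fold change -0.86, adjusted p = 0.000845), Cyp3a41b (-1.89, adjusted p = 0.0439) and Cyp3a44 (-1.59, adjusted p = 0.00763) fell in WT mice, and without KO saline replicate 3 Cyp3a41a fell in KO mice (-0.85). Cyp3a11 had 5437, 4825 and 5084 TPM in WT saline and 1448, 2429, 1187 and 2159 in WT ConA, a log2 fold change of -1.56 (SE 0.24, adjusted p = 0.00049). The KO mice had 2429, 2622 and 4920 after saline and 1547, 1647, 1267 and 1202 after ConA (-1.17, SE 0.23, adjusted p = 0.0011). The KO saline mice were uneven, with 1 near the WT level. Cyp3a25 fell by 2.71 in WT and by 1.56 in KO, and Cyp3a59, which shares 24.7% of its 50-base stretches with Cyp3a25, by 2.49 and 1.03, the KO call of Cyp3a59 being lost without KO saline replicate 3 (adjusted p = 0.0734). Cyp3a13, whose reads can be told apart from those of all other genes, fell by 0.75 in WT (adjusted p = 0.0141) and had a log2 fold change of -0.28 in KO (adjusted p = 0.279).

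Cyp4f genes fell or stayed low. Cyp4f15, one of the fatty acid and leukotriene hydroxylases, was at 130, 147 and 144 TPM in WT saline and 21.6, 22.7, 18.4 and 16.7 in WT ConA. Values in KO mice were 106, 116 and 112 after saline and 12.7, 11.9, 13.3 and 15.2 after ConA. The groups lay far apart and the mice of a group close together, and the log2 fold changes were -2.77 (SE 0.14, adjusted p = 9.35e-07) and -2.98 (SE 0.12, adjusted p = 1.57e-08). Cyp4f14 fell by 1.77 and 1.51, and Cyp4f13 by 1.02 and 1.51. Cyp4f17 was at 4.54 to 5.04 TPM after saline and 4.72 to 11.3 after ConA in WT mice (0.43, adjusted p = 0.191). KO mice showed a rise from 4.48 to 5.49 to 5.91 to 11.1 (0.70, adjusted p = 0.0108, and 0.0504 without KO saline replicate 2). Cyp4v3, a fatty acid hydroxylase, fell by 1.23 and 0.67. Cyp4b1 stayed at 3.80 TPM or less in every library and did not pass in either genotype, but was called lower in WT without WT ConA replicate 1 and in KO without KO ConA replicate 1.

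Cyp4a10 and Cyp4a14, the fatty acid hydroxylases that PPARalpha switches on, follow. Cyp4a10 was at 546, 851 and 882 TPM in WT saline and 158, 215, 199 and 160 in WT ConA. The KO mice read 589, 485 and 661 after saline and 346, 231, 314 and 507 after ConA. The WT groups were apart, while the highest KO ConA mouse exceeded the lowest KO saline mouse. The log2 fold change was -2.03 (SE 0.20, adjusted p = 3.23e-05) in WT and -0.77 (SE 0.23, adjusted p = 0.0113, and 0.0540 without KO saline replicate 3) in KO. Cyp4a14 had 523, 783 and 814 TPM in WT saline and 169, 319, 176 and 343 in WT ConA. KO values were 426, 429.8 and 709 after saline and 516, 413, 399.99 and 848 after ConA, and they overlapped. Its log2 fold change was -1.53 (SE 0.29, adjusted p = 0.00164) in WT and 0.03 (SE 0.26, adjusted p = 0.916) in KO. Cyp4a32 and Cyp4a31, minor members, fell in both genotypes, by 2.18 and 1.02 in WT and by 1.59 and 1.01 in KO, although WT ConA replicate 4 overlapped the saline range for Cyp4a31.

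**Figure D4:**
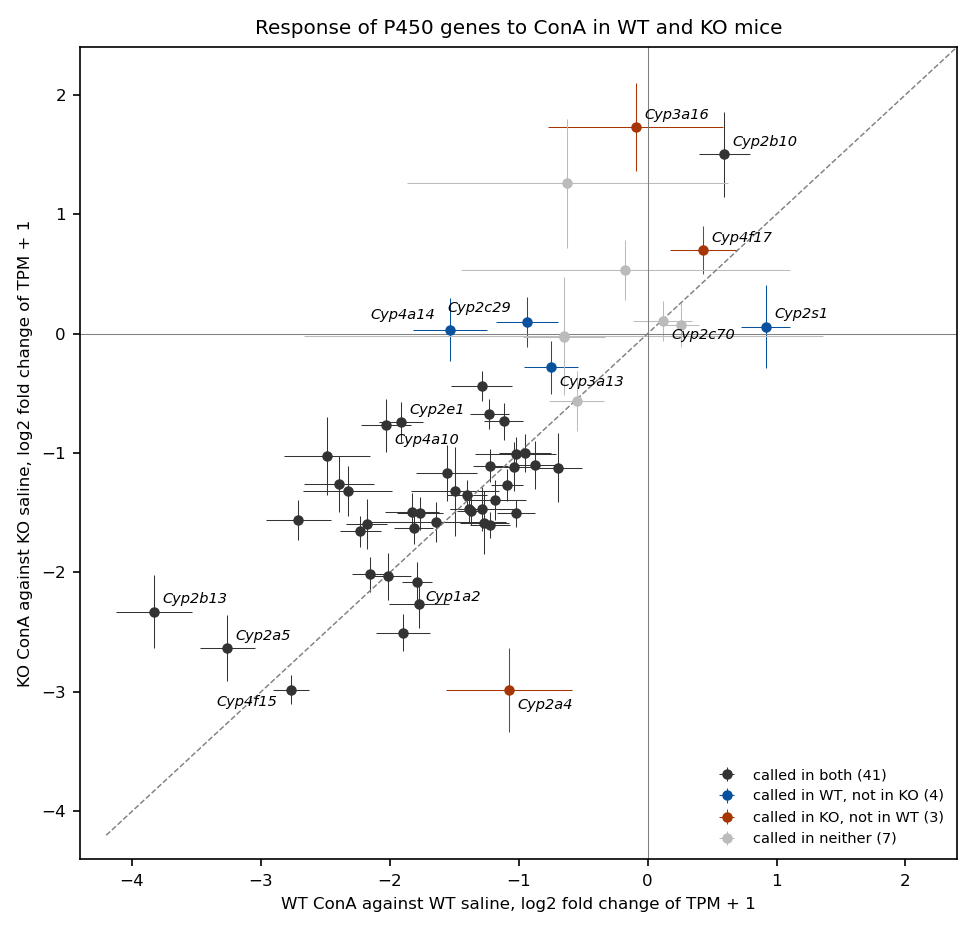
Log2 fold change of TPM + 1 with ConA in WT (horizontal axis) and KO mice (vertical axis) for the 55 members tested in both, with bars of 1 SE and a dashed line of equal change. Most points lie in the lower left, Cyp2e1, Cyp4a10 and Cyp4a14 lie above the line, and Cyp2b10 is in the upper right at 0.60 and 1.50.

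Before ConA, the genotypes differed in 17 of 55 members, 14 lower and 3 higher in KO saline, where 12.9% and 6.30% of the 10459 genes tested were called lower and higher. With the near-identical WT saline replicates 2 and 3 averaged, which leaves 2 WT saline samples, limma called 0 members and 0.459% of 10675 genes. An unadjusted p under 0.05 was found for 24 of 55 members and 4056 of 10459 genes without averaging. With averaging it was found for 18 of 56 members and 2789 of 10675 genes. Leaving out KO saline replicate 1 brought the count of called members to 5. Cyp2c29, a CAR and PXR target around the central vein, had 979, 1129 and 1153 TPM in WT saline and 351, 480 and 644 in KO saline (log2 fold change -1.18, SE 0.21, adjusted p = 0.0184, and -1.15 with adjusted p = 0.0879 when the pair was averaged). For Cyp2e1 the log2 fold change was -0.82 (adjusted p = 0.0268, and -0.76 with adjusted p = 0.114 when the pair was averaged). Cyp2j5 (-0.73), Cyp3a13 (-0.84), Cyp4a32 (-0.69) and Cyp4f14 (-0.68) were lower in KO saline without overlap. Among the called members Cyp2b10 and Cyp2d9 gave the largest differences, -1.24 and -1.43, that of Cyp2d9 being -0.88 without WT saline replicate 1. The ConA comparison in WT mice uses the same WT saline libraries, so the values of both are not independent. Higher in KO saline were Cyp3a16 (0.99), Cyp4b1 (0.71) and Cyp1a1 (0.70), all of them under 5 TPM in both groups. Cyp1a1 was under 1 TPM in every WT saline library and so was tested through KO saline alone. Ranges did not overlap, with KO lower, for 16 members, or for 29.2% of all genes tested, so the share of members was near that of all genes.

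After ConA, none of the 52 members tested was called between KO and WT with limma, where 0.428% of 10519 genes were called. An unadjusted p under 0.05 was found for 24 of the 52 members and for 1753 of the 10519 genes. With all 14 libraries in the fit, 8 members were called, against 6.08% of all genes: Cyp3a16, Cyp4a10 and Cyp4a14 higher in KO ConA, and Cyp2c23, Cyp2c54, Cyp2c55, Cyp2d22 and Cyp4f15 lower. In the comparison of the ConA groups alone, Cyp4a14 had a log2 fold change of 1.11 (SE 0.29, adjusted p = 0.0985), Cyp4a10 0.89 (SE 0.22, adjusted p = 0.0811) and Cyp2c54 -0.96 (SE 0.21, adjusted p = 0.0675). For these 3 members the 4 KO ConA and 4 WT ConA values did not overlap. Over all members tested, 8 lay lower and 5 higher in KO ConA without overlap, beside 4.11% and 6.37% of all genes.

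The change with ConA was itself compared between genotypes, as the interaction over all 14 libraries, and 3 of 57 members were called, where 4.78% of 11327 genes were. The share of members called was thus near that of all genes. By this test Cyp2e1 (1.17, SE 0.25, adjusted p = 0.028) and Cyp4a10 (1.26, SE 0.33, adjusted p = 0.044) fell less in KO than in WT. The Cyp2e1 call was lost in 7 of 21 alternatives and the Cyp4a10 call in 12 of 21. Cyp1a1 (-0.68, SE 0.18, adjusted p = 0.0471) was tested through KO saline alone, as the sole group with 1 TPM or more, and its call, lost in 17 of 20 alternatives, is given without being read as a difference. Cyp4a14 missed the threshold (1.57, SE 0.43, adjusted p = 0.0515). With WT saline replicates 2 and 3 averaged limma called 0 members and 0.243% of 11535 genes, and Cyp2e1 then had 1.12 (adjusted p = 0.0963). An unadjusted p under 0.05 was then found for 14 of 57 members and 2152 of the 11535 genes. All genes together had a median interaction of 0.14, which rescaling of the libraries brought to 0.03, and the rescaled values were 1.03 for Cyp2e1 and 1.12 for Cyp4a10, neither past the threshold.

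Grouped by receptor, 4 of 4 PPARalpha-responsive members fell in WT and 3 of 4 in KO. Of the CAR- and PXR-responsive members, Cyp2c29, Cyp2c55 and Cyp3a11 fell and Cyp2b10 rose in WT, while Cyp2c29 did not pass in KO (0.10, adjusted p = 0.700). By zone of the lobule, 8 of 8 pericentral members fell in WT (median log2 fold change -1.80) and 7 of 8 in KO (-1.56), and so did the periportal member Cyp2f2 in both, by 1.18 and 1.39. Over all members, 43 of 56 fell in WT and 42 of 56 in KO, with medians of -1.27 and -1.21. These small groups mostly repeat that fall and were not tested against it. Over all genes, 31.0% were called lower in WT and 30.7% in KO, and 22.0% and 33.9% higher. The same shares apply to the lists counted with ConA below.

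The sex-biased members varied from mouse to mouse within groups. Cyp3a41a had 3.0, 525 and 543 TPM in WT saline, 1166, 1091 and 199 in KO saline, 958, 3.93, 34.5 and 116 in WT ConA and 567, 576, 766 and 603 in KO ConA. Neither genotype showed a called change, and the WT mice of 1 condition spread widely. Of the 50-base stretches of Cyp3a41b, 93.5% are also in Cyp3a41a, so reads of this pair can hardly be told apart. Cyp3a16 was at 1.06, 1.3 and 1.12 TPM in WT saline, 2.62, 4.22 and 3.14 in KO saline, 8.90, 0.13, 0.15 and 0.30 in WT ConA and 6.73, 10.99, 29.3 and 13.4 in KO ConA. It rose in KO mice (1.73, SE 0.37, adjusted p = 0.00177), and in WT mice WT ConA replicate 1 stood apart in Cyp3a16, Cyp3a41a, Cyp3a41b and Cyp3a44 alike. Without that mouse, Cyp2a4, Cyp2c69, Cyp3a16, Cyp3a41b, Cyp3a44 and Cyp4b1 were also called lower with ConA in WT mice. In the same way, Cyp3a16, Cyp3a41a, Cyp3a41b and Cyp3a44 were called higher and Cyp2d9 lower in KO ConA than in WT ConA.

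**Figure D5:**
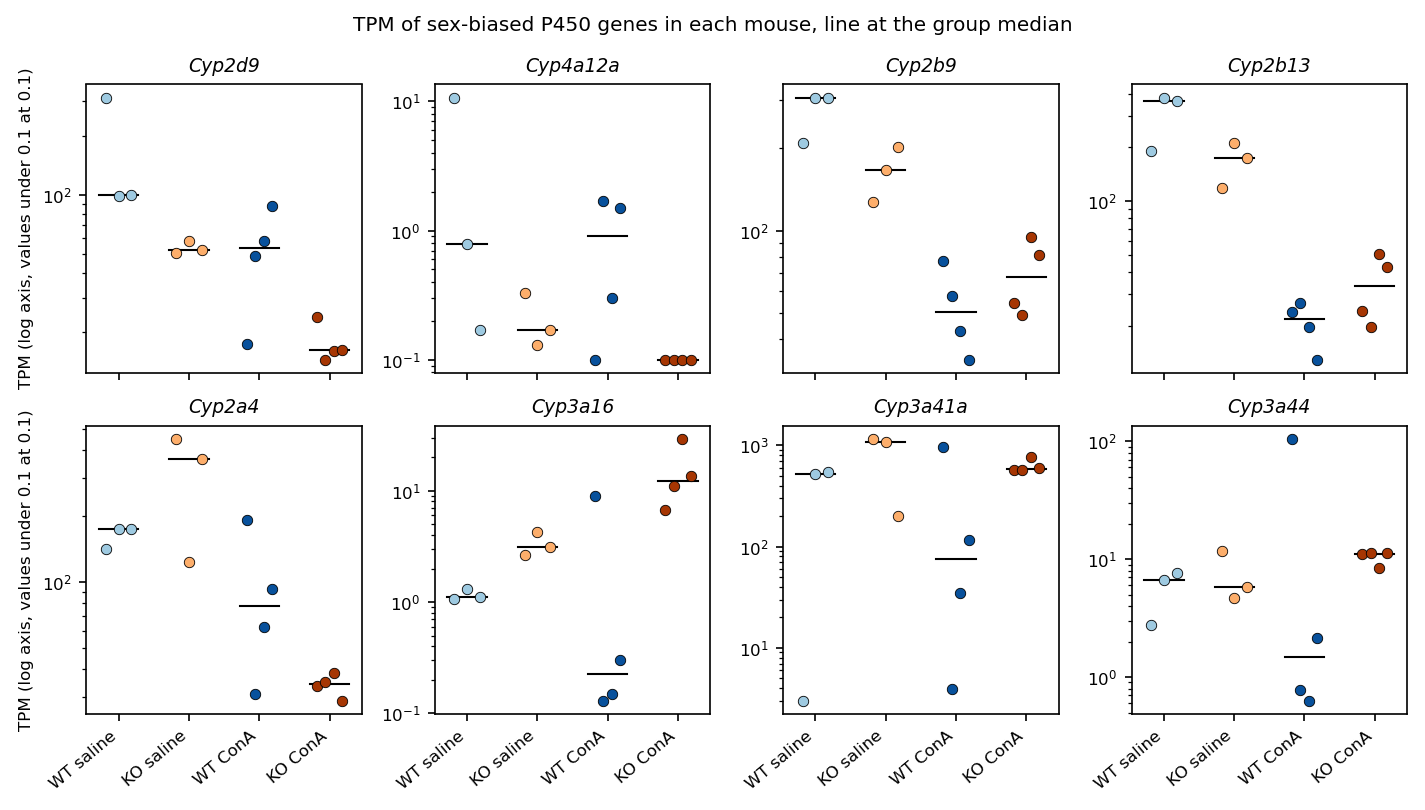
TPM (log axes, which differ between panels; values under 0.1 drawn at 0.1) of 2 male-predominant (Cyp2d9, Cyp4a12a) and 6 female-predominant members in each mouse, with a line at the group median. WT saline replicate 1 has the highest Cyp2d9 and Cyp4a12a and a Cyp3a41a of 3.0, and WT ConA replicate 1 has the highest Cyp3a41a, Cyp3a16 and Cyp3a44 of its group.

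Of the male-predominant members, Cyp2d9, a testosterone hydroxylase, was at 312, 98.4 and 100.3 TPM in WT saline and 50.3, 58.2 and 52.6 in KO saline. After ConA it was at 17.5, 48.8, 58.4 and 87.5 in WT and 23.9, 14.5, 16.1 and 16.2 in KO. Cyp4a12a had 10.7 TPM in WT saline replicate 1 and 1.70 or less elsewhere. WT saline replicate 1 was thus the mouse with the highest male-predominant and the lowest Cyp3a41a level of its group. Cyp2a4, counted as female-predominant, fell in KO mice from 452, 123 and 366 TPM to 33.6, 34.8, 38.3 and 28.7 (-2.98, SE 0.35, adjusted p = 2.81e-05), while in WT mice it had 142, 174 and 175 after saline and 192, 30.9, 62.5 and 92.5 after ConA without passing (-1.07, adjusted p = 0.0927). How far the sex or hormone state of single mice moved these values was not tested.

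The machinery around the enzymes moved as well. All 5 electron donors and partners fell in both genotypes, among them Por, the oxidoreductase, from 309 to 490 TPM to 191 to 235 in WT (-0.99) and from 267 to 337 to 188 to 268 in KO (-0.42). Of 8 heme synthesis genes, 6 fell in WT and 7 in KO. Alas1, the rate-limiting enzyme, fell by 0.90 and 1.43, and Alad by 1.70 and 2.30. Of 4 heme breakdown genes, 1 rose and 1 fell in each genotype. Hmox1, which opens the heme ring, rose from 5.32 to 10.9 TPM to 142 to 231 in WT (4.44) and from 4.53 to 7.83 to 227 to 364 in KO (5.29). Blvrb, a biliverdin reductase, fell from 208 to 217 TPM to 64.0 to 99.2 in WT (-1.43) and from 231 to 322 to 71.9 to 89.7 in KO (-1.78). Among 12 transcription factors known to act on P450 genes, 7 fell and 0 rose in WT, and 4 fell and 2 rose in KO. Nr1i3, which encodes CAR, fell from 195 to 196 TPM to 4.81 to 6.28 in WT and from 100.1 to 126 to 3.25 to 5.02 in KO (-4.95 and -4.45). Nr1i2 (PXR) fell by 1.32 and 1.14, and Hnf4a had a log2 fold change of 0.21 in WT and 0.33 in KO without passing in either.

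Other targets of the same receptors divided. In WT mice, 7 of 9 further PPARalpha targets fell and 2 rose, and in KO mice 3 of 8 tested fell and 2 rose. Pdk4, which restrains glucose oxidation, and Plin2, a lipid droplet protein, were the risers in both. Of 5 further CAR and PXR targets, 4 fell in each genotype. Of 3 further AhR targets tested, 2 fell and 1 rose in WT, and 1 fell and 1 rose in KO. Tiparp was the riser, by 2.65 in WT and 4.13 in KO, while the AhR-responsive Cyp1a2 fell in both. By zone, 7 of 9 other pericentral genes fell in WT, and in KO 4 of 7 tested fell and 1 rose. Of the others, 6 of 8 other periportal genes fell in WT and 8 of 8 in KO. The P450 genes of other families, which serve bile acid, sterol and retinoid metabolism, gave mixed counts: 5 of 11 tested fell and 1 rose in WT, and 6 of 11 fell and 2 rose in KO. Their falls included Cyp7a1, the rate-limiting enzyme of bile acid synthesis, from 66.8 to 72.5 TPM to 0.34 or less in WT.

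Markers of the cell types were read beside these results. The summed hepatocyte markers lay between 80600 and 94840 TPM after saline and between 42630 and 61140 after ConA in WT mice. The KO mice lay between 70260 and 84190 and between 34920 and 46540. Most of these sums is Alb, the albumin gene, at 71714 to 87030 TPM in WT saline and 37744 to 56543 in WT ConA. Of the 8 markers, 5 were called lower with ConA in each genotype and 2 higher in KO. Neutrophil markers rose from 11.0 TPM or less to between 315 and 554 in WT and between 409.5 and 944 in KO, with 5 of 6 called higher. Kupffer cell markers fell, 7 of 8 in WT and 3 of 8 in KO. In the 2 saline groups, stellate cell markers summed to 20.4 to 80.7 TPM in WT and 77.5 to 129 in KO, with 2 of 6 called higher in KO, and cholangiocyte markers to 3.97 to 5.39 and 6.16 to 15.3, with 1 of 3 tested called higher. Sinusoidal endothelial markers summed to 12.8 to 21.0 TPM in WT saline and 21.4 to 36.9 in KO saline, with 2 of 4 tested called higher in KO, and 2 of 8 hepatocyte markers were called lower in KO saline. Over all genes, 6.30% were called higher and 12.9% lower between the saline groups. With WT saline replicates 2 and 3 averaged, 0.459% were called in either direction. These marker calls share that limit, so a difference in cell types before ConA is not established. With ConA, 1 of 2 stellate markers tested fell in WT and 4 of 6 in KO, and 3 of 4 cholangiocyte markers rose in WT and 1 of 4 in KO. Of 5 endothelial markers, 2 rose and 2 fell with ConA in each genotype. T cell and B cell markers summed to 4.29 TPM or less in every library. The part of these cell types in the P450 results was not tested.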

How the data were processed

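Liver RNA of 14 mice was sequenced by the study as single-end reads of 50 bases. The authors deposited 1 table of TPM values for each mouse. The submitters' processing notes name Bowtie2 and RSEM 1.3.1 with the GRCm38.p6 genome, while the study's methods describe STAR and HTSeq, so which steps gave these TPM values is not settled by the sources used here. TPM carries no read number, so depth is unknown and error was taken from the mice of each group. Each library is taken as 1 mouse, but whether WT saline replicates 2 and 3 are separate mice could not be tested. Saline and ConA groups and replicate numbers came from the labels.

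TPM was tested as log2(TPM + 1) with limma 3.58.1 in R 4.3.3 (eBayes with its trend option). A gene was tested if the libraries at or above 1 TPM numbered no fewer than the mice of the smaller group. Fold changes are on that scale, which understates low genes. Pairwise tests used the libraries of their 2 groups, and the interaction used all 14. The alternatives were a pseudocount of 0.1, a minimum of 5 TPM or none, median-ratio rescaling of the libraries, a fit of all 14 libraries, a robust eBayes, a replicate block, WT saline replicates 2 and 3 averaged, and each library left out. The fits were also run on simulated data with independent normal noise in each library. That simulation held no near-identical pair of libraries, so it cannot judge the calls that depend on WT saline replicates 2 and 3.

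The members and the lists (receptors, sex bias, zones, heme, partners, transcription factors, targets, markers) were chosen with earlier results of these data known. Named are the most abundant member of each subfamily, the 3 largest rises and falls of each comparison among called members without overlap, up to 6 members called between genotypes or in the interaction, the members of the receptor, sex and zone groups and up to 3 called genes of other lists. Outside that rule, and picked with the values known, are Cyp2c23, Cyp2c67, Cyp2c68, Cyp2c70, Cyp2d12, Cyp2d22, Cyp2d26, Cyp2d34, Cyp3a25, Cyp3a59, Cyp4f13, Hnf4a, Alb, Por and Alas1. The share of 50-base stretches in no other gene was computed over GENCODE vM21 transcripts, with a median of 88.0% over the members and under 50% in 5 of them. Promoters came from RefSeq (46 of 57 members matched). Figures used Python 3.11.15 with matplotlib 3.10.9.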

Additional observations from a re-analysis of the deposited data

Results flagged for a closer look

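In the groups of 4 mice, 76 sets of values of the named members were examined, and in 10 of them 1 mouse lay far from the other 3. A rate of about 1 in 20 would hold by chance for independent, normally distributed values. These TPM values are not of that kind, since close copies move together in 1 mouse, so the 10 are not read as an excess. In WT ConA these were Cyp3a41a at 958 TPM, Cyp3a41b at 49.0, Cyp3a44 at 105 and Cyp3a16 at 8.90, all in WT ConA replicate 1, Cyp2c54 at 344 (replicate 4) and Cyp3a13 at 46.9 (replicate 3). In KO ConA they were Cyp2s1 at 2.09 and Cyp4a12a at 0.06 (replicate 3), Cyp3a44 at 8.43 (replicate 3) and Cyp4b1 at 3.80 (replicate 1).

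The change with ConA differed between WT and KO mice, by the interaction test of limma, for Cyp2e1 (log2 difference 1.17), Cyp4a10 (1.26) and Cyp1a1 (-0.68). Cyp1a1 reached 1 TPM in KO saline alone, which is how it came to be tested, so its value is not read as a genotype difference. None of these 3 differences stayed past the threshold with WT saline replicates 2 and 3 averaged.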

How the results depend on the processing

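The counts of members called with ConA stayed within 1.5 times under every alternative, at 42 to 49 in WT with single libraries left out (45 with all) and at 44 to 47 in KO (45 with all), and 41 members of each comparison were called under every alternative but the stricter minimum. The minimum of 5 TPM, which tests fewer members, gave 40 and 38. Between the saline groups, the count of 17 fell to 7 without a minimum, to 5 with all 14 libraries in the fit and to 0 with the average of WT saline replicates 2 and 3. It ran from 0 to 21 with single libraries left out: 0 without WT saline replicate 2 or 3, 5 without KO saline replicate 1 and 11 without KO saline replicate 2. Between the ConA groups, the count of 0 became 8 with all 14 libraries and 5 without WT ConA replicate 1, and 0 to 5 was the range with single libraries left out. The interaction count of 3 became 1 with rescaled libraries, 0 with the pair averaged and 0 to 6 with single libraries left out: 0 without WT saline replicate 2 or 3, KO saline replicate 1 or 2 or KO ConA replicate 4, 1 without KO ConA replicate 1, 5 without WT ConA replicate 2 or KO saline replicate 3 and 6 without WT saline replicate 1. The cause was not tested. Of the named members called with ConA, 24 of 28 in WT and 25 of 28 in KO were called under every alternative that tested them (the minimum of 5 TPM left out Cyp2g1, Cyp2s1 and Cyp4a31 in WT and Cyp1a1, Cyp2c55, Cyp2g1 and Cyp4a31 in KO), and 0 changed direction. In WT, the call of Cyp2b10 was lost in 9 of its 15 alternatives (adjusted p up to 0.137), that of Cyp2d9 in 4, and those of Cyp3a13 and Cyp4a31 in 1 each. In KO, Cyp2j5, Cyp4a10 and Cyp4f17 were each lost in 1 of 14 alternatives.

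Same-numbered mice did not deviate together in every pair of any comparison (correlations from -0.189 to 0.405). Some pairs did, such as replicate 3 of the ConA groups (0.405) and replicate 1 of the saline groups (0.342). Whether same-numbered mice were handled together is thus not settled, and the main fits leave replicate numbers out. With the replicate block, 44 members were called in WT and 46 in KO with ConA, 21 between the saline groups, 1 (Cyp4a14) between the ConA groups and 2 in the interaction. Depth is unknown in TPM tables, so values under about 1 TPM carry an unknown counting error.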

Other observations

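Over the 14 libraries, the levels of Cyp2e1 on the log2(TPM + 1) scale ran most closely with those of Cyp3a25 (Pearson r 0.98), Cyp4v3 (0.97) and Cyp3a59 (0.96), and those of Cyp4a10 with Cyp2c39 (0.94), Cyp2b13 (0.92) and Cyp2e1 (0.90). Cyp2b10 ran most closely with Cyp4f17 (0.61), and Cyp3a16 with Cyp3a41b (0.79). The libraries fall into a saline and a ConA cluster, and these values mostly restate that split, so they are a description.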
